A study of Saccharomyces cerevisiae with 12 samples.

Results

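The subject here is the yeast strain whose only Taf14 is the W81A form, represented by 3 of the 12 RNA-seq libraries, and its transcript levels against the 9 libraries of the 3 other strains. Members were taken by their labels alone: the 3 columns labelled W81A were set against the mean of the 3 other groups at equal weight. Genes were then sought on which W81A lay outside the range of all 3 other groups, higher or lower. The W81A group is a taf14 deletant in the BY4741 background carrying pRS313-taf14W81A-HA3-SSN6. The deletion group is the deletant with the empty vector pRS313-HA3-SSN6, the TAF14 group is the deletant with full-length pRS313-TAF14-HA3-SSN6, and the wild type is BY4741 with that empty vector. All 4 strains therefore carried a plasmid with HA3-SSN6 in its name, and W81A was compared with the deletion, TAF14 and wild-type strains at 3 libraries each. The plasmid copies are not at the native locus, and the labels do not say whether the libraries of a group came from separate cultures or transformants, so p-values measure the spread between these samples only, which may be technical.

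Taf14 is a small shared subunit of several yeast transcription and chromatin complexes, among them the general factors TFIID and TFIIF and the remodellers SWI/SNF and RSC. Its YEATS domain reads acylated lysines on the histone H3 tail by slotting the modified side chain between aromatic residues. Tryptophan 81 is one of them, and according to the series its replacement leaves a protein that no longer binds acetylated H3. The W81A strain thus differs from the deletion strain in having the protein, and from the TAF14 strain in its reader pocket.

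The position of the changed codon and 6 stretches of promoter are shown to place the mutation and the motif counted below. The TAF14 coding strand around codon 81, from the RefSeq R64 assembly (the same as sacCer3) at chrXVI:305628-305660 on the plus strand, has the tryptophan codon in capitals at chrXVI:305643-305645. It lies in a coding exon of TAF14.
TAF14: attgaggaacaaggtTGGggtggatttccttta
Each of the following 60-base windows, given 5′ to 3′ on the strand of its gene, lies before a gene that was higher in W81A than in every other group. Capitals mark ACGCGT, the box bound by the G1/S factor MBF. The windows are chrVIII:402752-402811 (minus strand) for SPO16, chrIV:681769-681828 (minus) for PDS1, chrXIII:420165-420224 (minus) for PDS5, chrVIII:402752-402811 (plus) for RTT107, chrIX:308025-308084 (minus) for IRR1 and chrX:302934-302993 (minus) for SMC3. SPO16 and RTT107 are divergent neighbours and their windows are the same DNA read from its 2 strands.
SPO16: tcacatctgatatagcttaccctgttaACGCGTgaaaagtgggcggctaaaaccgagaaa
PDS1: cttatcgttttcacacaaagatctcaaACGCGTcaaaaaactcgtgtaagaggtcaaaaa
PDS5: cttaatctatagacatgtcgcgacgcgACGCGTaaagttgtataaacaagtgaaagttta
RTT107: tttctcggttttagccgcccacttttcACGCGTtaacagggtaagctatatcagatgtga
IRR1: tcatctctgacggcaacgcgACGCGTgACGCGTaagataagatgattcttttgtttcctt
SMC3: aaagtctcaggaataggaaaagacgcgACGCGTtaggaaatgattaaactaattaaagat

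Libraries held 9.01 to 11.7 M counts (1 M being 1e6), and 5918 genes were tested. TAF14 itself stood at 223, 203 and 192 CPM (counts per 1e6 of the scaled library size) in W81A, at 0.437, 0.199 and 0.484 CPM in deletion cells, at 355, 143 and 302 CPM in TAF14 cells and at 132, 129 and 148 CPM in wild type. The W81A transcript thus lay inside the range of the TAF14 libraries, with a log2 difference of −0.37 ± 0.23 (SE) and an adjusted p of 0.232 against them. SPO19, the gene next to TAF14 on its upstream side, was at 57.9 to 64.4 CPM in W81A, 2.84 to 3.1 in deletion cells, 40.4 to 122 in TAF14 cells and 0.707 to 1.14 in wild type, so both plasmid-borne forms of TAF14 came with SPO19 reads. HIS3, the selection marker of this plasmid series, averaged 652 ± 16.4 CPM in W81A, 630 ± 91.5 in deletion cells, 932 ± 331 in TAF14 cells and 297 ± 25.9 in wild type (SD, n = 3 each). CYC8, another name of SSN6, did not pass the test against the mean of the other groups (log2 −0.11 ± 0.08, adjusted p = 0.352). The auxotrophy genes LEU2, URA3 and MET17, which are deleted in BY4741, were at 0 in every library of every group. The 7 a-cell marker genes together gave 947 to 1020 CPM in W81A, 597 to 599 in deletion cells, 1910 to 2530 in TAF14 cells and 2170 to 2300 in wild type, and none was at 0. The 4 alpha-cell markers gave 31 to 35.6 CPM in W81A and 30.1 to 42.5 in the other groups, and the 7 sporulation genes gave 55.4 to 60.3 CPM in W81A and 53.6 to 68.6 in the other groups. W81A lay within the range of the other groups on both.

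A feature of chromosome XII bears on the comparisons with deletion and TAF14 cells, not on those with wild type. The median log2 difference from wild type over chromosome XII genes was taken relative to the same median over all other tested genes. It was 0.0102, 0.0115 and 0.014 in the 3 W81A libraries, against 0.483, 0.498 and 0.544 in the 3 deletion libraries. In TAF14 cells it was 0.0327 in replicate 1, 0.572 in replicate 2 and 0.025 in replicate 3. The large shift was thus carried by 4 of the 9 other libraries, and W81A had none. The part of this shift in a single result was not tested.

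The W81A libraries formed a group of their own. On the first principal component of log2 CPM, which held 52.6% of the variance, they were at −0.317 to 0.318, between the deletion libraries on one side and the TAF14 and wild-type libraries on the other. On the second, with 20.3% of the variance, they were at 16.2 to 16.6 and all 9 others at −6.34 to −5.06. Replicates of W81A were also tight, with a median coefficient of variation over genes of 5.11%, against 6.3% in deletion cells, 7.3% in TAF14 cells and 5.88% in wild type.

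**Figure D1:**
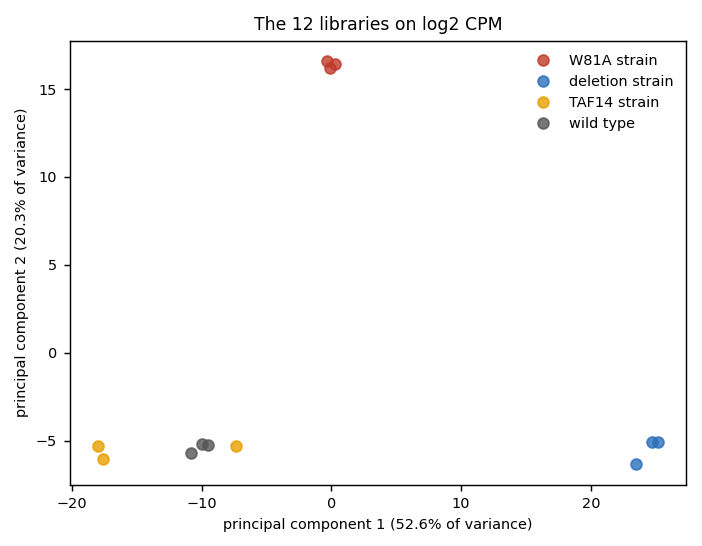
Principal components 1 and 2 of log2 CPM, 1 point per library, coloured by group. The 3 W81A libraries lie near 0 on component 1 and at 16.2 to 16.6 on component 2, apart from the 9 others, which share a narrow band at −6.34 to −5.06 on component 2.

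Against the mean of the 3 other groups, 969 genes were higher in W81A (16.4% of those tested) and 982 were lower (16.6%), 1951 in all (33%), at an adjusted p below 0.05 in edgeR's quasi-likelihood test. Those calls mix genes on which W81A lay between the other strains with genes on which it stood outside them. Its group mean was the highest of the 4 for 1439 genes, the lowest for 1323 and between the others for 3156. A gene was counted as outside the range when W81A was called in the same direction against the deletion, TAF14 and wild-type strains each, and all 3 W81A libraries lay beyond all 9 others. By that rule 221 genes were outside on the high side (3.73% of tested genes) and 182 on the low side (3.08%), 403 in all (6.81%). Taken singly, W81A was higher for 1343 and lower for 1334 genes than in deletion cells (22.7% and 22.5%), higher for 938 and lower for 1016 than in TAF14 cells (15.8% and 17.2%), and higher for 753 and lower for 858 than in wild type (12.7% and 14.5%). These 3 comparisons share the W81A libraries and are not independent of each other.

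Most of these departures were modest. The margin, meaning the fold change against the nearest of the 3 other groups, had a median of 1.23 on the high side and 1.31 on the low side. It reached 1.5-fold for 25 higher and 38 lower genes and 2-fold for 5 and 11. The nearest group was the deletion strain for 68 of the higher genes, the TAF14 strain for 57 and wild type for 96; on the low side it was the deletion strain for 70, the TAF14 strain for 62 and wild type for 50. Genes outside the range were somewhat longer than tested genes at large, with a median length of 1476 bases on the high side and 1438 on the low side against 1236 for all. With a stricter rule, in which the largest of the 3 p-values was adjusted over all genes, 81 higher and 73 lower genes were left.

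Of the genes on the high side, CHA1 (chrIII:15798-16880, R64, minus strand) had the widest margin. This gene for the catabolic serine and threonine deaminase, normally switched on by those amino acids, had 197, 209 and 193 CPM in W81A, against a lowest, median and highest value of 10.4, 35.4 and 54.9 CPM in the 9 other libraries. Every W81A library exceeded the highest of the others, and the deletion strain, at 50.1 ± 4.35 CPM, was the nearest group. The log2 difference was 1.99 ± 0.34 against deletion cells, 3.27 ± 0.36 against TAF14 cells and 2.84 ± 0.35 against wild type, with adjusted p-values of 0.000413, 3.09e-05 and 8.85e-05. VAC17, which lies 409 bases away and is read in the opposite direction (it encodes the vacuole receptor for the class V myosin), was outside the range too, at 111 ± 4.06 CPM in W81A against 63 to 88.9 CPM in the others. Its margin was 1.29-fold.

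**Figure D2:**
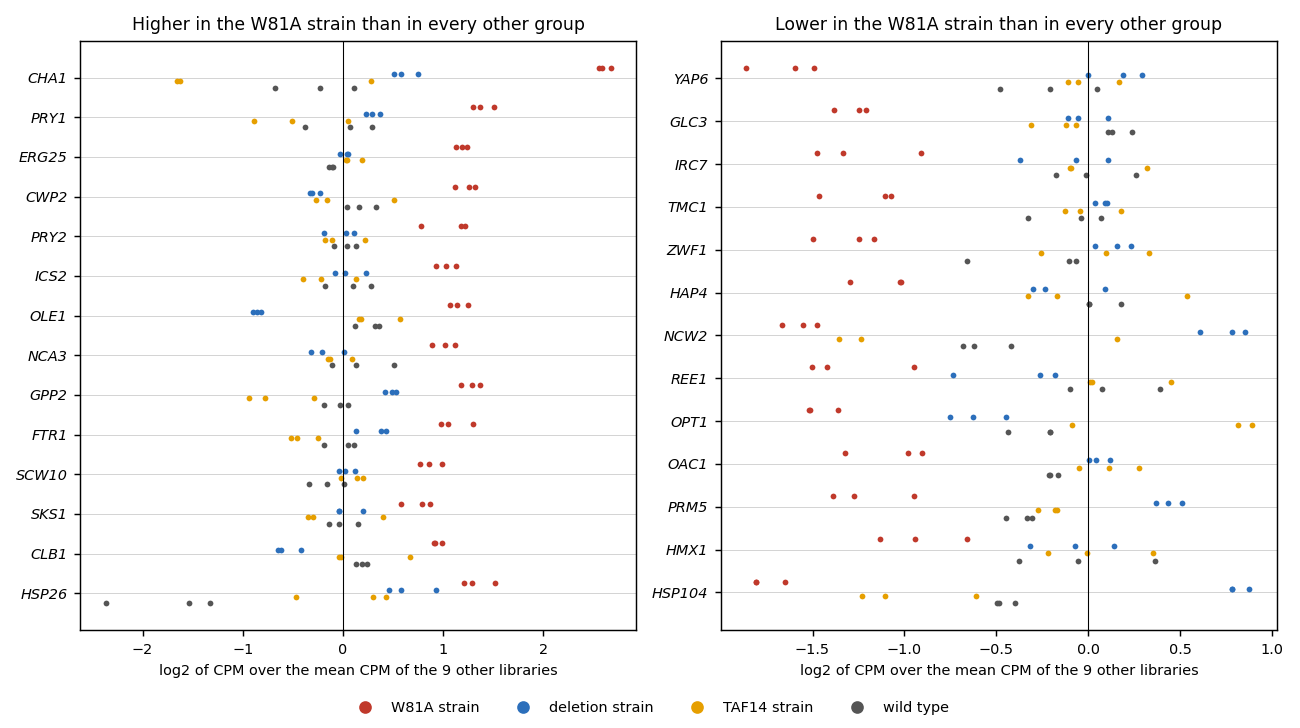
Levels of 27 genes named by margin, 14 higher (left) and 13 lower (right), as log2 of each library's CPM over the mean CPM of the 9 other libraries; each point is 1 library and colours mark the 4 groups. The W81A points stand to the right of all others on the left panel and to the left of all others on the right panel; for CHA1 they lie furthest out, and for NCW2 and HSP104 the deletion points lie far on the other side.

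Genes for lipids and the cell surface came next on the high side. ERG25, the sterol C-4 methyl oxidase of ergosterol synthesis, had 1160, 1110 and 1200 CPM in W81A, against 462, 521 and 581 CPM as lowest, median and highest of the others. The 3 other groups hardly differed from each other on this gene, at 517 ± 15.6 CPM in deletion cells, 542 ± 33.8 in TAF14 cells and 469 ± 6.6 in wild type, and the margin was 2.13-fold (adjusted p at most 1.53e-07 in the 3 contrasts). OLE1, the fatty acid desaturase, showed another arrangement. It had 2070, 1970 and 2230 CPM in W81A, 503, 533 and 517 in deletion cells, 1050, 1390 and 1060 in TAF14 cells and 1170, 1200 and 1020 in wild type. W81A and the deletion strain thus lay on opposite sides of wild type, with a log2 difference between them of 2.01 ± 0.11. PRY1 and PRY2, secreted proteins that bind sterols and fatty acids, had margins of 2.14 and 2.06-fold. PRY1 was at 127, 121 and 140 CPM in W81A and at 26.5 to 63.4 CPM in the others, and PRY2 at 309, 227 and 300 CPM in W81A against 116 to 154 CPM in the others.

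CWP2, a mannoprotein linked to the wall glucan, had 3390, 3090 and 3550 CPM in W81A, against 1130, 1270 and 2030 CPM as lowest, median and highest of the others, a margin of 2.07-fold. SCW10, a glucanase-like wall protein, averaged 635 ± 49.2 CPM in W81A and reached at most 397 CPM elsewhere. NCA3, of the SUN family, averaged 22 ± 1.73 CPM in W81A with a maximum of 15.5 CPM elsewhere. FTR1, the high-affinity iron permease, had 412, 514 and 431 CPM in W81A and 146 to 282 CPM in the others. GPP2, a glycerol phosphate phosphatase, was at 122 ± 7.92 CPM in W81A, 70.4 ± 2.82 in deletion cells, 32.4 ± 7.86 in TAF14 cells and 48.8 ± 3.98 in wild type. The remaining higher genes of this group were ICS2 (margin 1.94-fold), the protein kinase gene SKS1 (1.64-fold), the mitotic cyclin CLB1 (1.62-fold) and the small heat shock protein HSP26 (1.6-fold). CLB1 was at 250, 237 and 239 CPM in W81A and at 80.4 to 201 CPM in the others. HSP26 had 43.4, 54 and 45.9 CPM in W81A and 3.64 to 35.7 CPM in the others, with wild type lowest. Its call was lost without deletion replicate 1 or 3 (adjusted p = 0.0526 and 0.0744) or W81A replicate 2 (0.0724).

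On the low side the widest named margin belonged to YAP6 (chrIV:974631-975782, minus strand), a bZIP transcription factor, with 5.85, 4.87 and 6.29 CPM in W81A, against 12.7, 17.7 and 21.7 CPM as lowest, median and highest of the others. The 3 other groups overlapped each other and W81A stood alone below them, 2.72-fold under the nearest. GLC3, GSY1 and ZWF1, of sugar metabolism, also lay below all 9 other libraries. GLC3, the glycogen branching enzyme, had 10.3, 10.6 and 9.39 CPM in W81A and 19.7 to 28.9 CPM in the others, and GSY1, a glycogen synthase at the low level of 3.39, 2.33 and 3.59 CPM in W81A, had 6.27 to 12.9 CPM in the others. ZWF1, the glucose phosphate dehydrogenase that opens the pentose phosphate pathway, had 24.4, 30.8 and 29.1 CPM in W81A and 43.7 to 86.8 CPM in the others. Margins were 2.17-fold for GLC3, 2.19-fold for GSY1 and 2.06-fold for ZWF1.

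HAP4, the activating subunit of the complex that drives respiratory genes, was at 83.5, 83.9 and 69.1 CPM in W81A and at 135 to 246 CPM in the others, a margin of 1.96-fold. TMC1, which encodes a zinc finger protein, averaged 36.2 ± 5.23 CPM in W81A and was never under 66.5 CPM elsewhere. IRC7, a beta-lyase gene, averaged 17.3 ± 3.68 CPM in W81A and was never under 31.2 CPM elsewhere. For PRM5, a membrane protein gene induced by pheromone, W81A and the deletion strain stood on opposite sides of the TAF14 and wild-type strains, with 28.2, 38.3 and 30.5 CPM in W81A, 99.8, 105 and 95.2 in deletion cells, 65.7, 61.2 and 65.1 in TAF14 cells and 59.8, 54.1 and 58.6 in wild type. REE1, OPT1 (a peptide and glutathione transporter) and OAC1 (the mitochondrial oxaloacetate carrier) had margins of 1.87, 1.82 and 1.82-fold.

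3 of the 14 named low genes lie on chromosome XII. HSP104 (chrXII:88623-91349, plus strand), the protein disaggregase, had 130, 145 and 130 CPM in W81A, 782, 833 and 783 in deletion cells, 194, 298 and 211 in TAF14 cells and 325, 345 and 322 in wild type. The 2 TAF14 libraries without the chromosome XII shift were at 194 and 211 CPM. The log2 margin of HSP104 was −0.79, and −0.58 without TAF14 replicate 2. The log2 difference against wild type, which has no shift, was −1.29 ± 0.13 (adjusted p = 1.13e-05). HMX1, the heme oxygenase, was at 4.72, 6.56 and 5.39 CPM in W81A and at 7.98 to 13.3 CPM in the others. Its log2 difference from wild type was −0.91 ± 0.22, and it did not pass the stricter rule. NCW2, a wall mannoprotein, had 59, 67.4 and 63.9 CPM in W81A, 338, 322 and 286 in deletion cells, 79.7, 209 and 73.3 in TAF14 cells and 122, 140 and 117 in wild type. Its log2 margin of −0.93 shrank to −0.27 without TAF14 replicate 2, the library with the chromosome XII shift. Its call was lost when any W81A library was left out (adjusted p = 0.0673 to 0.0927), and without wild-type replicate 1 or 2 (0.0549 and 0.0746). In all, 22 of the 182 genes outside on the low side and 1 of the 221 on the high side were on chromosome XII, where 4.67% and 0.212% of 471 tested genes were outside. The chromosome's median log2 difference was −0.219 against the mean of the other groups and −0.00155 against wild type. Without chromosome XII in the fit there were 204 higher and 194 lower genes.

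Genes of the G1/S transition and of chromosome segregation were frequent on the high side. Of 34 tested G1/S genes, 10 were outside the range on the high side and 0 on the low side, beside 3.73% and 3.08% of all tested genes, and against the mean of the other groups 22 were called higher and 1 lower. Their median log2 difference was 0.31, against −0.00396 over all tested genes. Of the 10 G1/S genes outside, 6 passed the stricter rule. PCL1, a cyclin partner of the kinase Pho85, was at 79.1, 78.8 and 80.2 CPM in W81A and at 41, 52.9 and 57.4 CPM as lowest, median and highest of the others. RNR1, the large subunit of ribonucleotide reductase, had 782, 735 and 813 CPM in W81A and 379, 531 and 546 CPM as lowest, median and highest of the others. On this gene the TAF14 strain was the lowest group, at 407 ± 39.4 CPM, and the deletion and wild-type strains were close to each other, at 533 ± 3.35 and 527 ± 22.2 CPM. HCM1, the forkhead activator of late S-phase genes, averaged 106 ± 7.64 CPM in W81A and at most 82.5 CPM in any other library. The other G1/S genes outside were the cohesin subunits MCD1, SMC1, SMC3 and IRR1, the polymerase alpha and primase genes POL1 and PRI2, and CDC21, thymidylate synthase.

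A pair of related lists was put together after the values had been seen, and the G1/S list was chosen with earlier results of these data known. The counts of these lists therefore describe the data and support nothing. The lists also share genes, IRR1 among them, so some genes are counted more than once. Among 31 genes for cohesin, condensin and the replication fork, 13 were outside on the high side and 0 on the low side, with a median log2 difference of 0.29. Among 69 genes of the spindle pole body, microtubules and kinetochore, 19 were outside on the high side and 0 on the low side, with a median of 0.24, and 40 were called higher and 0 lower against the mean. The stricter rule left 9 of the 13 and 8 of the 19. SPC97 and SPC98, partners of gamma-tubulin, were at 103 ± 3.56 and 101 ± 2.3 CPM in W81A and did not exceed 73.5 and 80.4 CPM in any other library. PDS1, the securin, had 55.7, 51.3 and 54.1 CPM in W81A and 29.2 to 44.4 CPM in the others; PDS5, which maintains cohesion, had 191, 182 and 193 CPM in W81A against 105 to 155 CPM in the others. The motors CIN8 and KAR3 had margins of 1.35-fold each, and the checkpoint kinase BUB1 of 1.4-fold. SPC25, a kinetochore subunit at 15.7 ± 2.77 CPM in W81A and 5.74 to 11.2 CPM elsewhere, had a wider margin of 1.55-fold on low counts.

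**Figure D3:**
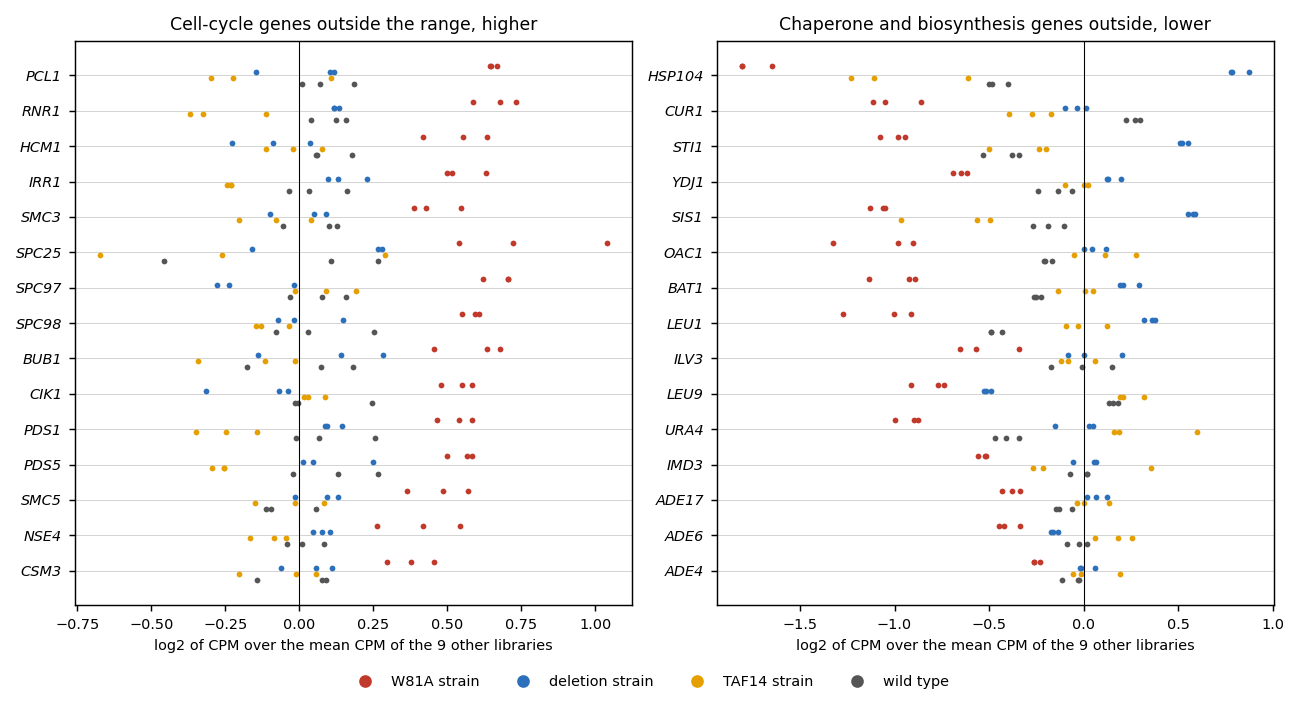
Levels of 15 cell-cycle genes outside the range on the high side (left) and 15 chaperone and biosynthesis genes outside on the low side (right), as log2 of each library's CPM over the mean CPM of the 9 other libraries; each point is 1 library. On the left panel the W81A points lie to the right of all others, and TAF14 cells are the lowest group for RNR1, IRR1, PDS1 and PDS5. On the right panel the deletion points lie far to the right of the rest for HSP104, STI1 and SIS1.

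Other cell-cycle lists gave other counts. Of 18 mitotic genes CLB1 alone was outside the range (5.56%, against 3.73% of all tested genes on the high side). Against the mean 1 was called higher and 8 lower (median −0.15). Of 21 genes for daughter separation and the M/G1 interval, 0 were outside on the high side and 4 on the low side, with 1 called higher and 11 lower and a median of −0.36. That was 19% outside on the low side, against 3.08% of all tested genes, and all 4 passed the stricter rule. DSE4, a daughter-cell glucanase, was at 291, 283 and 285 CPM in W81A, 1190, 1040 and 1070 in deletion cells, 352, 393 and 370 in TAF14 cells and 487, 491 and 560 in wild type. CHS1, a chitin synthase of wall repair at division, averaged 194 ± 7.42 CPM in W81A, below the lowest other library at 259 CPM. PCL9, another Pho85 cyclin, averaged 25.7 ± 0.638 CPM in W81A with a lowest value elsewhere of 33.8 CPM. All 11 tested histone genes were called higher against the mean (median 0.40), but only HHT1, for histone H3, and HTZ1, for the variant of H2A, were outside the range, and neither passed the stricter rule. HHT1 was at 318 ± 16.6 CPM in W81A and at 182 to 274 CPM in the others.

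Among 26 DNA damage genes, 3 were outside on the high side and 1 on the low side, with 7 called higher and 4 lower (median −0.03). That was 11.5% and 3.85% outside, against 3.73% and 3.08% of all tested genes, of which 16.4% and 16.6% were called. The checkpoint kinase RAD53 was at 44.7, 43.5 and 41.7 CPM in W81A, against 24.6, 28.4 and 32.8 CPM as lowest, median and highest of the others. DUN1, the kinase below it, was at 45.3, 41.6 and 40.4 CPM in W81A and at 26.3 to 34.9 CPM in the others. Both kinases therefore stood above every other strain by 1.41 and 1.31-fold. LCD1, the partner of the kinase Mec1, was outside on the high side by a log2 margin of 0.22, and RAD16, of nucleotide excision repair, on the low side by −0.35. RTT107, a scaffold for repair at stalled forks, was at 184, 175 and 175 CPM in W81A and at 103 to 145 CPM in the others. SPO16, its divergent neighbour 283 bases away and a meiotic gene, was at 3.9, 6.35 and 4.99 CPM in W81A and at 1.67 to 3.54 CPM in the others. In all there were 11 pairs of adjacent genes outside on the high side, 5 of them divergent, and 8 pairs on the low side, 2 of them divergent.

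Promoters differed between the groups of genes in their G1/S boxes. In windows from 250 bases before to 50 after the start codon, the MBF box ACGCGT was found on either strand in 29 of 218 windows of genes outside on the high side (13.3%), 6 of 180 on the low side (3.33%) and 181 of 5664 of all tested genes (3.2%). The SBF box CGCGAAA, with its reverse TTTCGCG, was found in 9.63% of windows of higher genes, 0.556% of lower genes and 3.64% of all. Either box was present in 48 of the 218 windows of higher genes (22%), 7 of the 180 of lower genes (3.89%) and 372 of all (6.57%), where the 2 boxes can overlap. The windows printed above hold 6 of the 26 cases with an ACGCGT at least 80 bases before the start codon; the box ends 97 bases before it at SPO16, 179 at PDS1, 163 at PDS5, 182 at RTT107, 123 at IRR1 and 112 at SMC3, and the IRR1 window holds 2 boxes. The stress element CCCCT (reverse AGGGG), bound by Msn2 and Msn4, was in 14.7% of windows of higher genes, 26.7% of lower genes and 21.7% of all. The Gcn4 site TGACTC (reverse GAGTCA) was in 4.59% of higher, 10.6% of lower and 8.25% of all windows, and the Ste12 site TGAAACA (reverse TGTTTCA) in 5.96% of higher, 7.78% of lower and 7.29% of all. CACGTG, bound by Cbf1, Pho4 and Ino2/Ino4, was in 0.917% of higher, 2.78% of lower and 2.95% of all windows, and GATAAG (reverse CTTATC), bound by GATA factors, in 13.8% of higher, 18.9% of lower and 14.5% of all. A match is a description of the letters and does not show that a factor bound there.

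**Figure D4:**
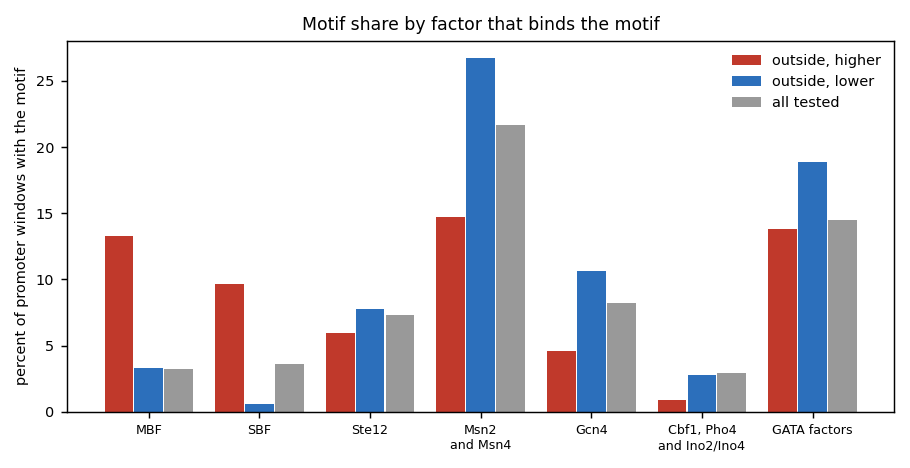
Percent of promoter windows, from 250 bases before to 50 after the start codon, that hold the motif of each named factor on either strand, for the 218 higher genes (left bar), 180 lower genes (middle bar) and 5664 tested genes (right bar). The MBF and SBF bars of the higher genes stand at 13.3% and 9.63%, against 3.2% and 3.64% of all windows.

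Chaperone genes were frequent on the low side. Of 28 heat shock chaperone genes, 8 were outside on the low side (28.6%) and 0 on the high side. Over all tested genes these shares were 3.08% and 3.73%. Against the mean, 20 of the 28 were called lower and 1 higher, where 16.6% and 16.4% of all genes were called. The median log2 difference was −0.46. The stricter rule left 6 of the 8. Of the 8, HSP104 and SSA2 lie on chromosome XII, which was shifted in the deletion libraries and in TAF14 replicate 2. STI1, a co-chaperone that links the major cytosolic chaperones, had 274, 281 and 257 CPM in W81A, 793, 778 and 770 in deletion cells, 472, 383 and 460 in TAF14 cells and 427, 374 and 416 in wild type. The J-domain proteins YDJ1 and SIS1 were at 336 ± 8.48 and 101 ± 3.09 CPM in W81A, under the lowest other libraries at 446 and 109 CPM. For SIS1 the nearest library was TAF14 replicate 2, at 109 CPM. CUR1, a factor that sorts misfolded protein, had 13.1, 11 and 11.5 CPM in W81A and 18.1 to 29.2 CPM in the others, and here wild type was the highest group. HSP82, the inducible form of that chaperone, was at 168 ± 7.85 CPM in W81A, 566 ± 20.9 in deletion cells, 251 ± 46.9 in TAF14 cells and 209 ± 8.53 in wild type; its wild-type contrast was the weakest (log2 −0.31 ± 0.11, adjusted p = 0.0464), and it did not pass the stricter rule. SSA2 was at 1420 ± 44.2 CPM in W81A against 1690 to 3690 CPM in the others, with a log2 difference from wild type of −0.39 ± 0.07. It lies on chromosome XII and has a near-identical copy, so its reads cannot be assigned with certainty. HSP26, above, was a chaperone of the stress list that went the other way.

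General stress genes were mixed, with 2 outside on each side among 38, 8 called higher and 16 lower (median −0.19). The share outside was 5.26% on each side, against 3.73% and 3.08% of all tested genes, of which 16.4% and 16.6% were called. YGP1, a secreted glycoprotein made on nutrient limitation, was at 755, 749 and 868 CPM in W81A, 274, 269 and 239 in deletion cells, 579, 494 and 619 in TAF14 cells and 372, 347 and 340 in wild type, while TPS1, trehalose phosphate synthase, was lower by a log2 margin of −0.27. Of 34 proteasome genes 25 were called lower and 0 higher against the mean (median −0.21), yet RPN12 alone was outside the range, at 96.6 ± 2.54 CPM in W81A against 105 to 162 CPM in the others. Of 15 osmotic and glycerol genes, GPP2 was outside on the high side and GPD1 and HOG1 on the low side. HOG1, the osmotic stress kinase, lies on chromosome XII, and was at 170 ± 5.08 CPM in W81A against 221 ± 5.45 in wild type (log2 −0.38 ± 0.13). GPP2 and GPD1 act in the same short pathway to glycerol. GPD1 was at 44.9 ± 1.81 CPM in W81A and at 48.1 to 57.6 CPM in the others. Of 25 genes for defence against oxidants 0 were outside the range (7 called higher, 3 lower). At the shares over all tested genes, a list of that size would hold few or none outside.

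Several genes for amino acid and nucleotide synthesis were outside on the low side. Of 48 genes of amino acid synthesis (arginine and the serine family apart), 9 were outside on the low side and 0 on the high side, with 24 called lower and 2 higher and a median of −0.18. A list of 11 branched-chain amino acid genes, made after the values were seen, held 6 of the genes outside, all lower, with a median of −0.51. BAT1, the mitochondrial branched-chain aminotransferase, had 530, 457 and 541 CPM in W81A, against 837, 1010 and 1230 CPM as lowest, median and highest of the others. LEU1, of leucine synthesis, averaged 1340 ± 169 CPM in W81A, 3550 ± 71.9 in deletion cells, 2790 ± 213 in TAF14 cells and 2000 ± 45.2 in wild type. OAC1, of the same list, had 146, 115 and 154 CPM in W81A and 249 to 349 CPM in the others. LEU9 differed in its order: it was at 142 ± 9.16 CPM in W81A, next to the deletion strain at 175 ± 2.05 CPM, with the TAF14 strain at 295 ± 14.5 and wild type at 278 ± 5.13 CPM. ARO4, at the entry of the aromatic pathway, was at 306 ± 10.2 CPM in W81A and at 406 to 513 CPM in the others.

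Of 24 purine, pyrimidine and one-carbon genes, 6 were outside on the low side and 0 on the high side (13 called lower, 1 higher, median −0.21). ADE17, of the last steps to IMP, was at 874, 844 and 901 CPM in W81A and at 1030 to 1250 CPM in the others. URA4, dihydroorotase, was at 386 ± 17.4 CPM in W81A and 528 to 1110 CPM in the others, and IMD3, an IMP dehydrogenase, at 535 ± 8.49 CPM in W81A against 643 to 991 CPM in the others. Both lie on chromosome XII, and their log2 differences from wild type were −0.52 ± 0.10 and −0.52 ± 0.13. HOM2, which serves threonine and methionine synthesis, was outside on the low side at 540 ± 42.7 CPM in W81A and 670 to 1270 CPM elsewhere. It was the only member outside among 27 sulfur and methionine genes (2 called higher, 10 lower, median −0.14), and with CHA1 1 of 2 among 18 serine, threonine and glycine genes. The sulfur list thus had 3.7% outside on the low side, near the share of all tested genes. Pentose phosphate genes (13, a list made after the values were seen) had 3 outside on the low side, ZWF1, SOL1 and GND1. Protein kinase A genes (16, likewise) had 4, among them the adenylate cyclase CYR1 and the kinase RIM15, with 0 on the high side in both lists. The stricter rule left 2 of the 3 pentose phosphate genes and 2 of the 4 protein kinase A genes.

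Cell wall genes split in both directions. Of 39 tested, 7 were outside on the high side and 3 on the low side, with 12 called higher and 13 lower and a median of −0.04. The higher ones were the secreted lipid-binding proteins PRY1 and PRY2 and the wall proteins CWP2, SCW10, GAS1, SCW4 and ECM33. All 7 passed the stricter rule. GAS1, the major glucan elongating enzyme, had 3410, 3280 and 3770 CPM in W81A, against 1590, 1930 and 2260 CPM as lowest, median and highest of the others. SCW4, close in kind to SCW10, was at 1280 ± 80.9 CPM in W81A and at 693 to 958 CPM in the others. The lower ones were NCW2 and 2 members of the wall integrity signal, the kinase SLT2 and its factor RLM1. Only 1 of these 3 passed the stricter rule, and NCW2 did not. SLT2 was at 84.3, 94.3 and 85.7 CPM in W81A and at 110 to 158 CPM in the others. Among 71 genes for glycosylation and GPI anchors, a list made after the values were seen, 13 were outside on the high side and 1 on the low side. Of these, 3 on the high side and 0 on the low side passed the stricter rule. PSA1, which makes GDP-mannose, was at 1860, 1930 and 2100 CPM in W81A and 1070 to 1580 CPM in the others.

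**Figure D5:**
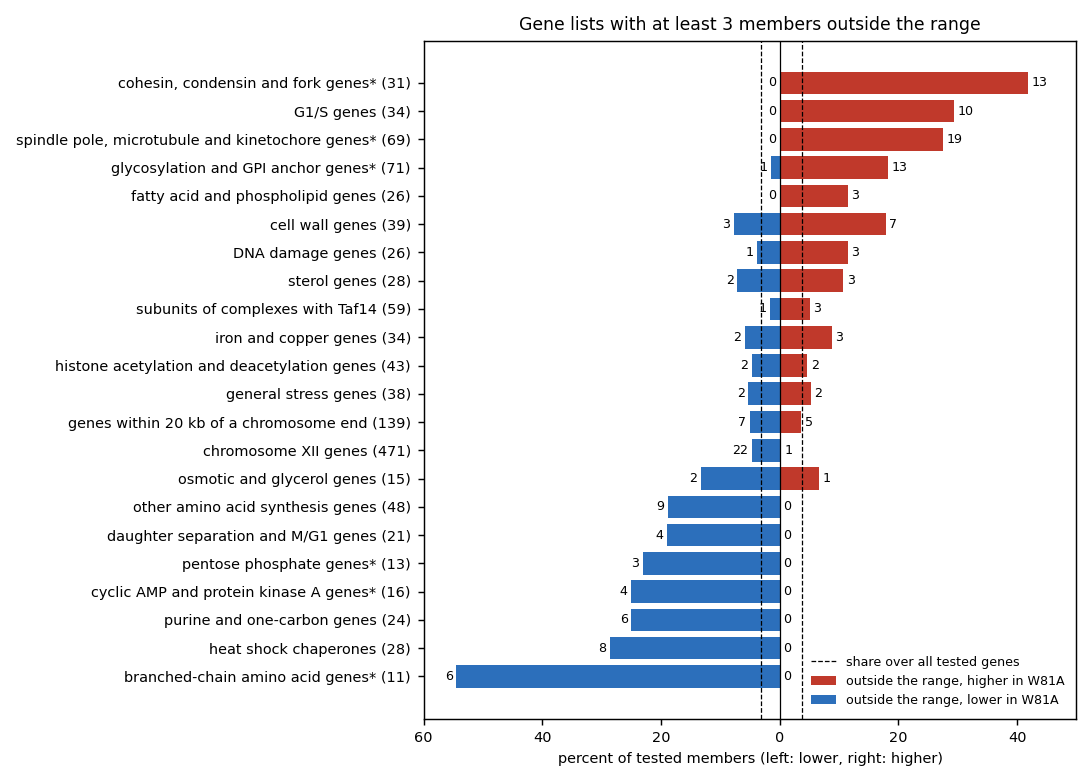
Percent of the tested members of each gene list outside the range, lower in W81A to the left and higher to the right, with the number of genes at the bar end and tested members in brackets; dashed lines give the shares over all tested genes (3.08% and 3.73%), and an asterisk marks a list made after values were seen. Cohesin, G1/S and spindle lists reach furthest to the right and branched-chain amino acid genes and chaperones furthest to the left; all lists with at least 3 members outside are shown.

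Lipid genes were also found on both sides. Of 28 sterol genes 3 were outside on the high side and 2 on the low side (7 called higher, 11 lower, median −0.09). That was 10.7% and 7.14% outside, against 3.73% and 3.08% of all tested genes, of which 16.4% and 16.6% were called. ERG1, squalene epoxidase, had 824, 846 and 897 CPM in W81A and 439 to 602 CPM in the others. ERG3, a sterol desaturase gene and the only higher gene on chromosome XII, was at 995 ± 16.3 CPM in W81A, 842 ± 50.6 in deletion cells, 581 ± 41.1 in TAF14 cells and 394 ± 11 in wild type. ERG6 and ERG28, of later steps and of the scaffold, were lower by 1.21 and 1.24-fold. Neither passed the stricter rule, while 2 of the 3 higher sterol genes did. Of 26 fatty acid and phospholipid genes 3 were outside on the high side and 0 on the low side (11 called higher, 2 lower): OLE1, the elongase ELO1 and the synthase FAS1. Only OLE1 passed the stricter rule. FAS1 was at 9980, 9560 and 10500 CPM in W81A and 6430 to 8290 CPM in the others.

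Iron genes were found on both sides. Of 34 iron and copper genes 3 were outside on the high side and 2 on the low side (8.82% and 5.88%, against 3.73% and 3.08% of all tested genes), with 14 called higher and 6 lower (median 0.07), where 16.4% and 16.6% of all genes were called. FET3, the oxidase that works with the permease Ftr1, had 2140, 2530 and 2280 CPM in W81A, 1620, 1780 and 1820 in deletion cells, 865, 949 and 882 in TAF14 cells and 1210, 1080 and 1030 in wild type. FET5, the related oxidase of the vacuole, was at 116 ± 5.03 CPM in W81A and 83.9 to 100 CPM in the others. ENB1, a siderophore transporter, was outside on the low side, at 39.6, 59 and 42.6 CPM in W81A and 67.7 to 142 CPM in the others, and so was HMX1.

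Of 59 tested subunits of complexes that contain Taf14, 3 were outside on the high side (5.08%, against 3.73% of all tested genes) and 1 on the low side (1.69%, against 3.08%). Against the mean, 15 were called higher and 7 lower (median 0.06), where 16.4% and 16.6% of all genes were called. Of the subunit genes outside, 1 on the high side and 0 on the low side passed the stricter rule. SWI3, a core subunit of SWI/SNF, was at 156, 150 and 150 CPM in W81A, against 110, 119 and 127 CPM as lowest, median and highest of the others, a margin of 1.25-fold. ARP7, shared by SWI/SNF and RSC, was at 119 ± 7.06 CPM in W81A and 85.4 to 111 CPM elsewhere, and the TFIID subunit TAF4 at 116 ± 3.66 CPM in W81A against 83 to 103 CPM in the others. TAF2, of TFIID, was lower at 136 ± 4.15 CPM in W81A against 148 to 176 CPM in the others. It overlaps another annotated gene, so its reads cannot be assigned with certainty. Of 43 histone acetylation and deacetylation genes, YNG2 and HOS3 were outside on the high side and EPL1 and HST2 on the low side. That was 4.65% on each side, near the 3.73% and 3.08% of all tested genes. None of the 4 passed the stricter rule. The 4 log2 margins lay between −0.28 and 0.23.

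Ribosomal genes had nearly no member outside. Of 135 cytosolic ribosomal protein genes 1 was outside on each side (0.741%), against 3.73% and 3.08% of all tested genes. Of these 135, 3 were called higher and 21 lower (median −0.11), where 16.4% and 16.6% of all genes were called. Of 64 ribosome biogenesis genes 0 were outside, with 13 called higher and 4 lower. Of 32 a-specific and pheromone genes, CIK1 was outside on the high side and PRM5 on the low side, a share near that of all genes, while 16 were called lower and 2 higher against the mean. CIK1 works with KAR3 on microtubules and also belongs to the spindle list. Within 20 kb of chromosome ends, 5 of 139 tested genes were outside on the high side and 7 on the low side, 3.6% and 5.04%, against 3.73% and 3.08% of all tested genes.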

How the data were processed

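Total RNA of 12 samples was sequenced after ribosomal RNA removal with a stranded kit, per the labels. The deposited values are counts of reads for each gene; the submitters' processing notes name TopHat2 2.0.14, SAMtools 0.1.19, HTSeq 0.6.1p1, DESeq2 1.8.1 and sacCer3, and the strand setting and annotation are not given in the sources used here. Of 6692 entries, 6008 matched the R64 RefSeq annotation by locus tag; the 684 others held 0.952% of counts and stayed in the fit unnamed.

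The test was the quasi-likelihood F-test of edgeR 4.0.16 in R 4.3.3 (trimmed mean of M-values scaling, default low-count filter removing 774 entries and leaving 5918) in 1 model of 4 groups with 8 residual degrees of freedom. Benjamini-Hochberg adjusted p below 0.05 was called. Log2 differences carry the SE from the F statistic, and CPM is per 1e6 of scaled library size, with SD over n = 3. Adjusted p-values all come from this fit unless another tool is named. With 9.01 to 11.7 M counts a library, 3 counts correspond to at most 0.327 CPM, which covers counting error only.

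Named genes were TAF14 and the plasmid and strain markers; the 14 higher and 14 lower genes outside the range with the widest margin, a mean log2 CPM of at least 3 and a standard name; up to 3 members outside the range per list, or the 2 with the smallest p where none was; and neighbours outside the range. RTT107, SPO16, LCD1, RAD16, SPC25 and further members of lists were named after their values were seen. The members and the 41 gene lists were chosen with earlier results of these data known, and 6 more lists were made after values were seen. Near copies were sequences at 95% identity over at least 30% of a gene. All 12 columns matched a sample. Replicates differed beyond sampling noise, so none was counted as a duplicate. The analysis was tested on simulated data. Alternatives were DESeq2 1.42.0, limma-voom (limma 3.58.1), other scalings and filters, a robust fit, a replicate block, a fit of the 6 libraries compared, stricter and looser rules, omission of each library, of chromosome XII and of near copies. Reads and the allele sequence were not analysed here. A gene that the rule named is not reported here.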

Additional observations from a re-analysis of the deposited data

How the results depend on the processing

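Counts that moved by more than 1.5 times did so where the rule itself was changed. Against the mean of the other groups, a test against a 1.5-fold change left 90 genes (29 higher, 61 lower) of 1951. Of the 221 higher and 182 lower genes outside the range, 81 and 73 were left when the largest of the 3 p-values was adjusted over all genes, and 25 and 38 with a margin of at least 1.5-fold. By single libraries alone, with no test, there were 402 and 354. With the deletion strain left out of the rule, an alternative chosen after seeing the data, there were 454 and 477. Leaving out 1 library at a time gave 1335 to 2296 genes against the mean, 150 to 260 higher and 122 to 227 lower genes outside the range, 2225 to 3034 against deletion cells, 1446 to 2149 against TAF14 cells and 1197 to 2008 against wild type. The replicate numbers did not pair the samples: same-numbered libraries had correlations of their deviations from −0.417 to 0.579, 6 of 18 above 0.1. A replicate block gave 1967 genes against the mean and 216 higher and 182 lower genes outside. DESeq2 gave 210 and 181, limma-voom 228 and 181, and the omission of TAF14 replicate 2 with chromosome XII, also chosen after seeing the data, 222 and 209. The other alternatives kept each count within 1.5 times. Of 638 recomputed margins of the 28 named genes, 628 kept their direction and call, 10 lost the call (7 of NCW2, with adjusted p = 0.0506 to 0.0927, and 3 of HSP26) and 0 reversed, and the log2 margin of NCW2 was −0.27 in place of −0.93 without TAF14 replicate 2; the cause was not tested. With 3 libraries a group, whose cultures are not stated, the counts move with single libraries, and genes of a few CPM are measured least precisely.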

Other observations

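Some genes were called against the mean of the other groups while W81A lay between them or next to one of them. ARG3, of arginine synthesis, averaged 180 CPM in W81A, 239 in deletion cells, 39.1 in TAF14 cells and 48.3 in wild type. The amino acid permease gene GAP1 averaged 39.8 CPM in W81A, 36.4 in deletion cells, 8.49 in TAF14 cells and 8.47 in wild type, and the peptide transporter gene PTR2 averaged 51.9 CPM in W81A, 54.9 in deletion cells, 26.4 in TAF14 cells and 24.1 in wild type. TPO4, a polyamine exporter, ran the other way at 31.1 CPM in W81A, 34.1 in deletion cells, 87.3 in TAF14 cells and 106 in wild type. On these genes W81A was thus near the deletion strain, and so it was on ARG56 and MUP3, of the arginine and permease lists. CAN1 and PDR16, of the permease and drug efflux lists, were nearest to the TAF14 strain instead. CAN1 averaged 160 CPM in W81A, 245 in deletion cells, 176 in TAF14 cells and 180 in wild type. PDR16 averaged 174 CPM in W81A, 126 in deletion cells, 153 in TAF14 cells and 120 in wild type. The arginine list (15 genes), the nitrogen catabolite list (23), amino acid permeases (18) and drug efflux genes (19) each had 0 members outside the range. In that order 5, 5, 4 and 8 were called higher and 4, 2, 4 and 4 lower, where 16.4% and 16.6% of all genes were called. Over all tested genes 3.73% were outside on the high side and 3.08% on the low side. At those shares, lists of this size would hold few or none.

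In energy metabolism, 10 of 25 glycolysis and fermentation genes were called higher and 3 lower against the mean, with a median log2 difference of 0.24, but CDC19, pyruvate kinase, was the only one outside the range, at 6630 ± 382 CPM in W81A and 4240 to 5810 CPM in the 9 others. Of 36 respiratory chain and ATP synthase genes HAP4 alone was outside, with 4 called in each direction. CIT1, the mitochondrial citrate synthase, was the only one of 28 tricarboxylic acid and retrograde genes outside the range, at 86.2 ± 7.09 CPM in W81A and 109 to 189 CPM in the others. HXT1, the low-affinity hexose transporter, was higher at 994 ± 73.6 CPM in W81A against 514 to 850 CPM in the others, while MAL11, a maltose transporter near a chromosome end, was lower at 2.77 ± 0.534 CPM in W81A against 4.26 to 7.19 CPM in the others. Among 12 hypoxic genes AAC3, an ADP/ATP carrier, was lower at 3.9, 3.81 and 4.39 CPM in W81A and 5.46 to 17 CPM in the others. The importin gene KAP95, on chromosome XII, was at 215 ± 11.1 CPM in W81A, with a log2 difference of −0.41 ± 0.12 from wild type. Phosphate genes (24), thiamine and vitamin B6 genes (19) and zinc genes (11) had 1 member each outside on the low side, the transporters PHO91, THI73 and ZRT2. THI73 and ZRT2 lie on chromosome XII, with log2 differences from wild type of −0.47 ± 0.14 and −1.39 ± 0.09. Of the genes named here, HAP4, CIT1 and PHO91 passed the stricter rule. CDC19, HXT1, MAL11, AAC3, KAP95, THI73 and ZRT2 did not. Meiosis and sporulation genes (25), alpha-specific genes (5) and genes of RNA polymerases I and III (20) had 0 outside. With 3.73% of all tested genes outside on the high side and 3.08% on the low side, such short lists would hold few or none.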
